A study of Mus musculus with 50 samples.

Results

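The genes described here are those of polyamine metabolism, chosen by symbol from a list of 10: the synthesis enzymes Odc1, Amd1, Amd2, Srm and Sms, the oxidases and acetyltransferase Smox, Paox and Sat1, and the antizymes Oaz1 and Oaz2. The deposited tables hold 23880 genes, and 9 of the 10 have a row there; Amd2 is the exception and no value for it was analysed here. RNA came from the gastrocnemius, a calf muscle made mostly of fast fibers, of 50 male wild type C57BL/6JRj mice aged 8, 18, 22 and 24 months (8 mice each) or 26 and 28 months (9 mice each). Each mouse gave 1 library and was counted as 1 replicate. All mice were singly caged and ate the AIN93M diet, which per the study's methods the 8 and 18 months-old mice received for at least 2 months and the older mice from about 18 months of age onward. Mice of 22 to 28 months thus began the diet at a like age, and their time on it lengthened with age. Age and diet history cannot be told apart in any comparison here. The comparisons ask which steps of the pathway differed with age, and when.

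Polyamines are small, positively charged molecules that bind RNA and DNA and are needed for translation and growth. Ornithine decarboxylase (Odc1) makes putrescine from ornithine, and S-adenosylmethionine decarboxylase (Amd1) supplies the aminopropyl groups that spermidine synthase (Srm) and spermine synthase (Sms) add to form spermidine and spermine. The way back runs through spermine oxidase (Smox), which turns spermine into spermidine, or through acetylation by Sat1 followed by oxidation by Paox, while the antizymes Oaz1 and Oaz2 bind ornithine decarboxylase and deliver it to the proteasome. In skeletal muscle, Smox is known for falling under conditions that cause atrophy.

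Total counts ranged from 13607229 to 21267375 per mouse. Of the 23880 genes, 12586 reached 1 CPM (counts scaled to library size) or more in at least 8 mice, and all 9 polyamine genes with a row were among them. A difference was called at a false discovery rate (FDR) below 0.01 in edgeR's quasi-likelihood test, adjusted over all genes tested. Markers of fast fibers such as Ckm and Acta1 were high in the tissue, with a summed level of the 9-gene list between 112170 and 234522 CPM at 28 months. The lowest of these belonged to 28 months replicate 2, where the other 28 months-old mice started at 163025 CPM. The same mouse had the highest summed macrophage (546 against 203 to 353 CPM in the others), lymphocyte (34.0 against 6.25 to 9.19 CPM), endothelial and adipocyte markers of its age. Calls between ages that rest on this mouse are given with and without it. The test over all ages at once, the counts of called markers and the likeness between genes were not repeated without it. In bulk tissue, fewer cells of a type and less RNA per cell cannot be told apart.

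Amd1 has a near copy in the genome, Amd2. In GENCODE vM21 (GRCm38), Amd1 lies on the minus strand at chr10:40287458-40302186 and its main transcript has 8 exons, while Amd2 (chr10:35708675-35711892, minus strand) has a single exon and no assigned transcript support level. Over 3204 aligned bases the 2 transcripts differed at 14, so that 99.6% were identical, and their coding sequences of 1002 bases differed at 1. Of the 31-base words of all annotated Amd1 transcripts, 89.6% also occur in Amd2. Reads from the copy, if any, therefore cannot be told apart from those of Amd1 in most of the transcript. Values for Amd1 may include them, and whether Amd2 was transcribed was not measured. Per the study's methods, the reference was limited to protein-coding transcripts by their support level. Of the other members, only Paox shared any such word with another protein-coding gene (2.90% of its words).

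The stretch before the start site of 3 members is shown because the first pair fell most with age and the third, the enzyme of the first step, had no called change. The sequences are the 250 bases upstream of the RefSeq start (GRCm38.p6), for Amd1 at chr10:40302189-40302438 (minus strand), Smox at chr2:131491612-131491861 (plus strand) and Odc1 at chr12:17544623-17544872 (plus strand). Capitals mark the letters GGGCGG or its reverse complement CCGCCC, known as a GC box, and in Smox also 1 match to TGACNNNGC, the core of an antioxidant response element.
Amd1: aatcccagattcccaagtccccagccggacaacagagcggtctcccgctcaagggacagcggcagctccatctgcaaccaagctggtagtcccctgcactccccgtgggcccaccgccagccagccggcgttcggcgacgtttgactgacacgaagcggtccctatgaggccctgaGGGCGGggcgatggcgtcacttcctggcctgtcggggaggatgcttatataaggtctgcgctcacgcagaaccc
Smox: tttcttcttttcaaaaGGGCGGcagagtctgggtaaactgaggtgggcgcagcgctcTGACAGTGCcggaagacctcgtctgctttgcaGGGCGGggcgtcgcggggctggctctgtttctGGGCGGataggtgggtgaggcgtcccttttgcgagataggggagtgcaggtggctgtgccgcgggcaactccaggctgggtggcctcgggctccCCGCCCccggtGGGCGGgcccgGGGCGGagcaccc
Odc1: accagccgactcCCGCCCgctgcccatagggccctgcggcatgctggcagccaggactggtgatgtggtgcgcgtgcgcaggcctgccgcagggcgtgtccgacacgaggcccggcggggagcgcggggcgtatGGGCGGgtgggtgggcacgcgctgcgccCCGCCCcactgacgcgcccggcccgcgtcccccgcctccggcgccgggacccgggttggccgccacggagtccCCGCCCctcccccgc
Smox had 6 GC boxes, spread over the 250 bases, Odc1 had 4 and Amd1 had 1, close to the start. A GC box occurs in 35.7% and TGACNNNGC in 12.4% of all 32851 RefSeq promoter windows of 300 bases (250 before to 50 after the start), searched on both strands. Neither CACGTG (an E-box, in 7.15% of windows), TATAAA (13.6%) nor TGTTTAC (a forkhead motif, 3.65%) was found in the windows of these 3 genes. Such matches describe the letters of the window and no binding was measured.

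The 9 transcripts spanned a wide range of levels per transcript length, given as TPM, a share of all transcripts. At 8 months Amd1 led with 2643 ± 472 TPM (mean ± SD, n = 8), followed by Smox with 733 ± 213, Odc1 with 461 ± 101 and Oaz1 with 452 ± 57.8 TPM. Oaz2 (243 ± 23.0), Sms (121 ± 14.01), Sat1 (28.6 ± 4.51), Srm (11.4 ± 1.86) and Paox (6.72 ± 0.756 TPM) followed in that order. Among neighbors in this order at 8 months, Smox and Odc1, and Odc1 and Oaz1, had overlapping ranges and all others stood apart. At 28 months Amd1 still had the highest mean, 782 ± 477 TPM (n = 9), but its range now overlapped that of Odc1 at 564 ± 221 TPM. Smox had gone from rank 2 to rank 5, with 203 ± 95.7 TPM, below Oaz1 (358 ± 53.0) and next to Oaz2 (232 ± 31.8 TPM).

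**Figure D1:**
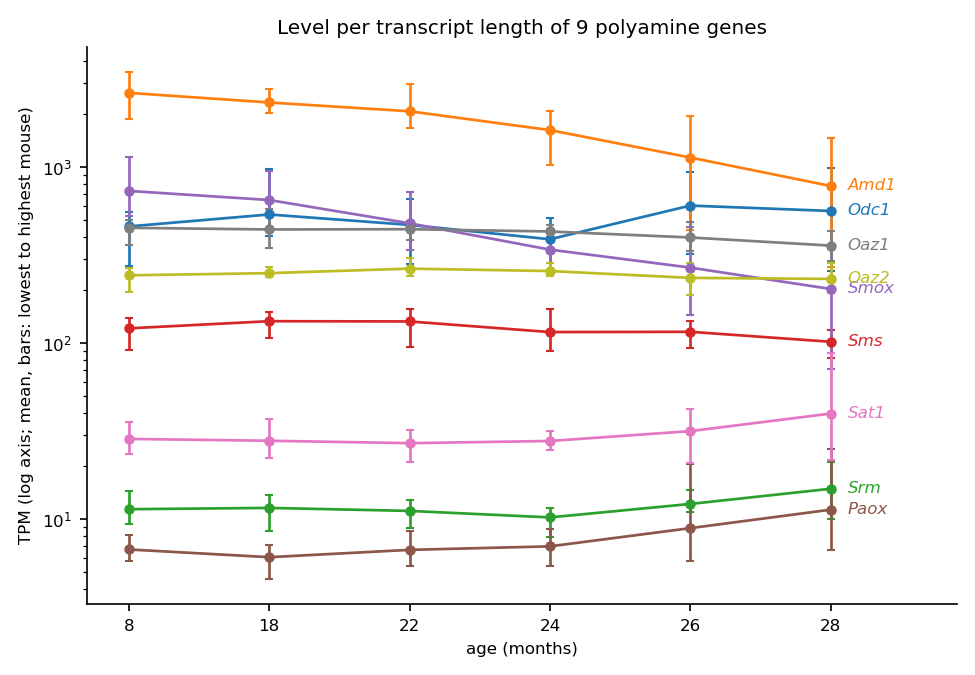
Mean TPM (log axis) of 9 polyamine genes at each age, with bars from the lowest to the highest mouse (n = 8 or 9 per age). Amd1 went from 2643 TPM at 8 months to 782 TPM at 28 months and Smox from 733 to 203 TPM, while Sms, Sat1, Srm and Paox kept ranks 6 to 9 at each of the 6 ages.

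Between 8 and 28 months, 4 of the 9 polyamine genes fell and 1 rose: Amd1, Smox, Oaz1 and Sms were lower and Paox was higher, whereas Odc1, Srm, Sat1 and Oaz2 did not pass the test. Among all genes tested 39.6% were called in this comparison, 21.0% higher and 18.7% lower. The median log2 fold change of the 9 genes was −0.12, beside 0.01 over all genes tested. The changes of Amd1 and Smox were large, and those of the other 3 were small. These smaller calls also depended on single mice. Without 28 months replicate 2, Amd1 and Smox stayed called and the other 3 did not, leaving 2 of 9.

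Amd1 had 2769, 3461 and 4414 CPM in the lowest, median and highest 8 months-old mouse. The corresponding values were 2604, 2680 and 4141 CPM at 18 months, 1953, 2317 and 4160 at 22 months, and 1438, 2034 and 2674 at 24 months. They were 564, 1422 and 2688 CPM at 26 months and 320, 662 and 1819 CPM at 28 months. From 24 months on every mouse lay below the lowest 8 months-old mouse. At 24 against 8 months Amd1 was not called (FDR 0.107). The share of all genes without overlap was not computed for 24 or 26 months. The 28 months-old mice also lay below every 22 months-old one. The ranges of 28 and 8 months failed to overlap, with the older mice lower, for 2 members, Amd1 and Smox, beside 2.24% of all genes tested, and with the older mice higher for 0 members, beside 2.46%. Against 22 months, 1 member was lower without overlap, Amd1, beside 0.810% of all genes, and 0 were higher, beside 0.699%. The log2 fold change of Amd1 at 28 against 8 months was −1.85 (SE 0.26, 95% interval −2.37 to −1.32, FDR 3.75e-07), or 0.278-fold. As a share of all counts, Amd1 went from 0.350% at 8 months to 0.0945% at 28 months. Its coefficient of variation between mice was 15.1% at 8 months and 62.2% at 28 months, when 4 mice had 1235 to 1819 CPM and the other 5 had 320 to 662 CPM.

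Smox, on chromosome 2, had 413, 621 and 1029 CPM in the lowest, median and highest 8 months-old mouse. It had 355, 610 and 836 CPM at 18 months, 297, 398 and 687 at 22 months, and 231, 310 and 358 at 24 months. At 26 months the values were 136, 225 and 438 CPM and at 28 months 54.4, 199 and 302 CPM. The median was lower at each successive age, and all mice of 24 and 28 months had less Smox than any mouse of 8 months. At 26 months 8 of 9 mice did, so that the ranges overlapped. The share of all genes without overlap was not computed for 24 months. The log2 fold change at 28 against 8 months was −1.89 (SE 0.24, 95% interval −2.37 to −1.41, FDR 4.85e-08), or 0.270-fold. The lowest mouse of all was 28 months replicate 2, and without it the value was −1.77 (FDR 9.03e-08). Over all 6 ages at once, Smox had the 52nd largest F statistic of the 12586 genes (F = 19.9, FDR 2.12e-08) and Amd1 ranked 332 (F = 14.1, FDR 5.77e-07). In this test over the ages, Paox, Sms and Srm passed as well, 5 of 9, where 35.4% of all genes did. It was not repeated without 28 months replicate 2.

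**Figure D2:**
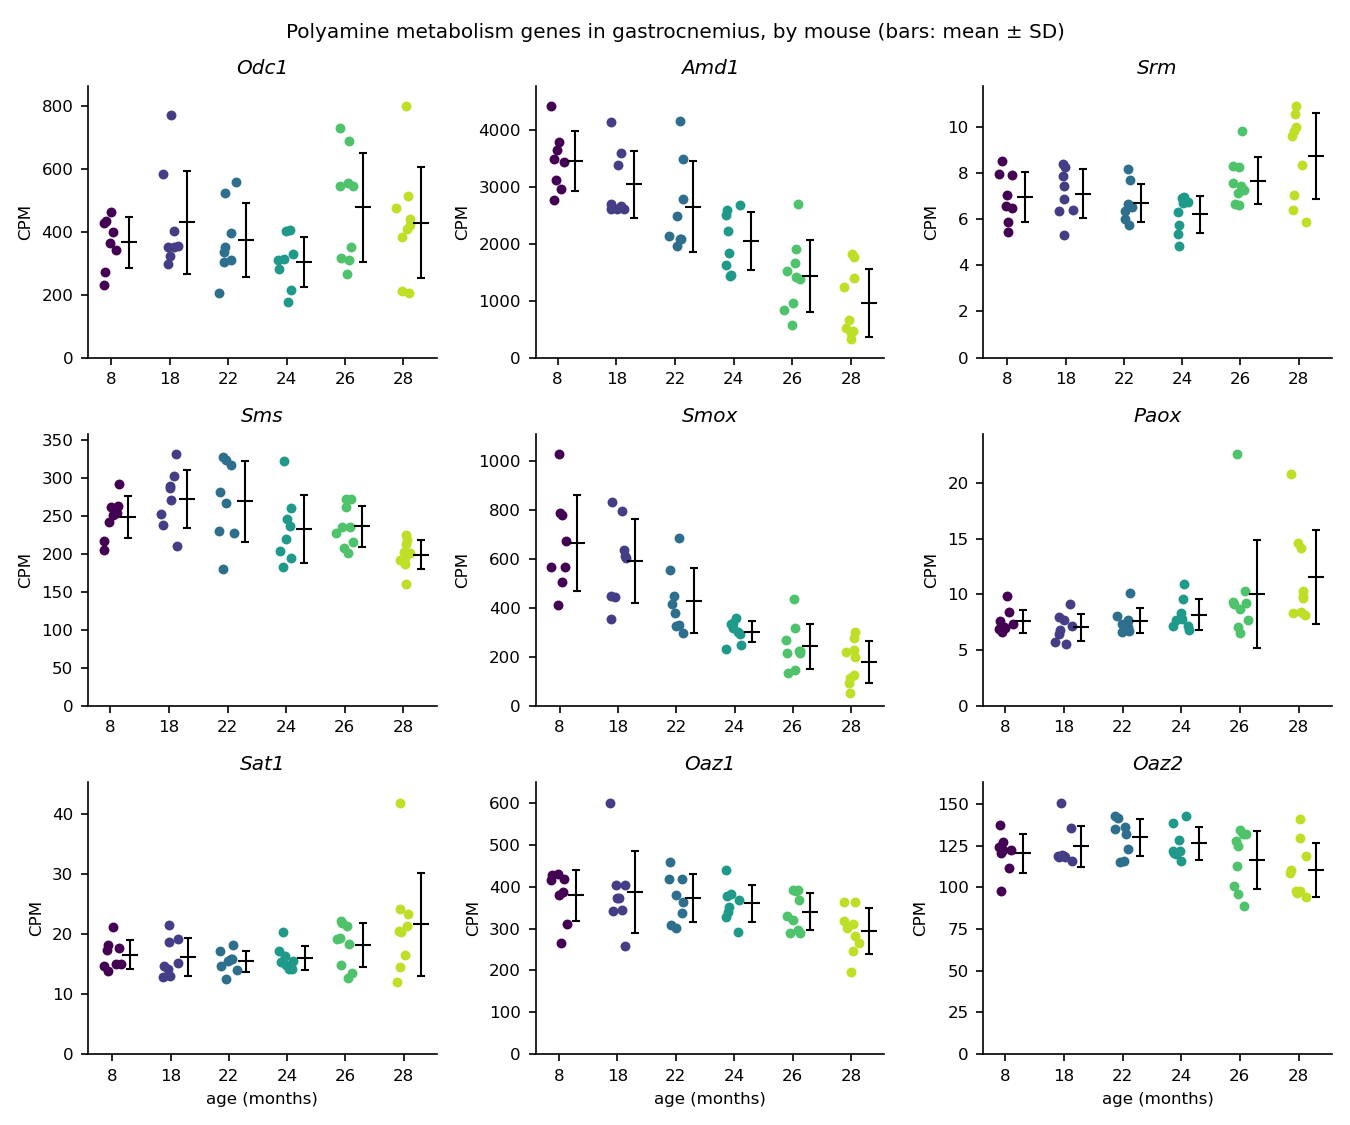
CPM of each mouse (points, colored by age) for 9 polyamine genes, with mean ± SD beside the points (n = 8 at 8 to 24 months, n = 9 at 26 and 28 months). Amd1 and Smox at 28 months, up to 1819 and 302 CPM, lie below all mice of 8 months, whereas Odc1 overlaps at every age and Paox and Sat1 each have a single high mouse at 28 months (20.9 and 41.9 CPM).

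Of the remaining synthesis enzymes, Odc1 varied most between mice at both 8 months (coefficient of variation 22.2%) and 28 months (41.0%). It had 231, 381 and 464 CPM in the lowest, median and highest mouse at 8 months and 204, 420 and 799 CPM at 28 months, and its log2 fold change of 0.23 (SE 0.23, 95% interval −0.22 to 0.68, FDR 0.404) included 0. At 28 months 3 mice were above and 2 below the whole range of 8 months. Spermidine synthase, Srm, had 5.46, 6.79 and 8.50 CPM at 8 months and 5.88, 9.57 and 10.9 CPM at 28 months, with 5 of 9 older mice above the younger range. Its log2 fold change of 0.33 (SE 0.11, FDR 0.0121) just missed the threshold; it passed by DESeq2 (FDR 0.00803) and with the replicate number as a block (FDR 0.00717). Without 28 months replicate 2 it was 0.28 (FDR 0.0346), and of the 17 fits that left out 1 mouse 6 passed. Spermine synthase, Sms, on chromosome X, had 206, 253 and 292 CPM at 8 months and 161, 201 and 225 CPM at 28 months. It fell by 0.32 on the log2 scale (SE 0.10, FDR 0.00743), with 6 of 9 older mice below the younger range, and this call was lost in 10 of the 17 fits that left out 1 mouse (largest FDR 0.0221).

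On the back-conversion and acetylation side, Paox had 6.67, 7.18 and 9.82 CPM in the lowest, median and highest mouse at 8 months and 8.20, 9.90 and 20.9 CPM at 28 months. It rose by 0.61 on the log2 scale (SE 0.17, FDR 0.00266), and 5 of 9 older mice were above the younger range. Its highest value came from 28 months replicate 2, and leaving this mouse out gave 0.46 (FDR 0.0168). Paox overlaps Echs1 on the opposite strand, and the authors assigned reads with their strand. Sat1 had 13.8, 16.2 and 21.1 CPM at 8 months and 12.0, 20.5 and 41.9 CPM at 28 months, with the highest value again in replicate 2. Its log2 fold change was 0.39 (SE 0.15, FDR 0.0238), with 4 of 9 older mice above and 1 below the younger range, and 0.20 (FDR 0.174) with this mouse left out. The high immune markers and low fast fiber markers of replicate 2 go with these values, and their part in them was not tested.

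Oaz1, the more abundant antizyme per length, had 267, 401 and 431 CPM at 8 months and 197, 301 and 364 CPM at 28 months. It fell by 0.37 on the log2 scale (SE 0.12, FDR 0.00800), with 3 of 9 older mice below the younger range, and 11 of 17 fits without 1 mouse lost the call (largest FDR 0.0238). Oaz2 had 97.8, 122 and 137 CPM at 8 months and 93.9, 109 and 141 CPM at 28 months. Its log2 fold change of −0.12 (SE 0.08, 95% interval −0.29 to 0.04, FDR 0.197) did not pass the test. Of the 9 members, Oaz2 varied least between mice at 8 months, with a coefficient of variation of 9.62%.

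The decline of Smox was called at a younger age than a change of any other member. No polyamine gene was called at 18 or 22 months against 8 months, where edgeR called 0.0715% and 0.0397% of all genes; at an unadjusted p below 0.05 there were 0 members at 18 months and 1 at 22 months, and DESeq2 called 0 at both. At 24 months Smox alone was called, with a log2 fold change of −1.13 (SE 0.24, FDR 0.00450), where 0.612% of all genes were called and 0.294% were lower; the call was lost in 6 of 16 fits that left out 1 mouse, with 8 months replicates 2, 4 and 7 or 24 months replicates 1, 2 and 8 removed (largest FDR 0.0173). Amd1 stood at −0.75 (SE 0.26, FDR 0.107) at this age. At 26 months Smox (−1.45, SE 0.23, FDR 1.75e-05) and Amd1 (−1.26, SE 0.26, FDR 0.000333) were both lower, 2 of 9, where 18.4% of all genes were called and 8.55% were lower. Whether Smox changed before Amd1 was not tested. These comparisons share the 8 months-old mice.

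Each age against the one before gave no called member from 18 to 28 months. In these comparisons edgeR called 0.00795% of all genes at 22 against 18 months and 0% in the later ones, DESeq2 called 0 members in each, and the members at an unadjusted p below 0.05 numbered 0, 1, 2 and 2 in order of age. With ages joined, Smox was lower at 22 and 24 than at 8 and 18 months (−0.80, SE 0.17, FDR 0.00485), the single member called where 0.810% of all genes were and 0.381% were lower. The call rested on single mice: it was lost without 8 months replicate 2, 18 months replicate 7 or 22 months replicate 1. From 22 and 24 to 26 and 28 months, 5 of 9 members were called, beside 27.9% of all genes, 16.5% higher and 11.4% lower. Amd1 (−0.99, SE 0.18, FDR 4.83e-05) and Smox (−0.79, SE 0.16, FDR 0.000199) were lower, and Paox (0.45, SE 0.12, FDR 0.00279), Srm (0.34, SE 0.08, FDR 0.000630) and Sat1 (0.33, SE 0.10, FDR 0.00894) were higher. Sat1 lost its call in 25 of the 34 fits that left out 1 mouse (largest FDR 0.0269, without 28 months replicate 2).

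**Figure D3:**
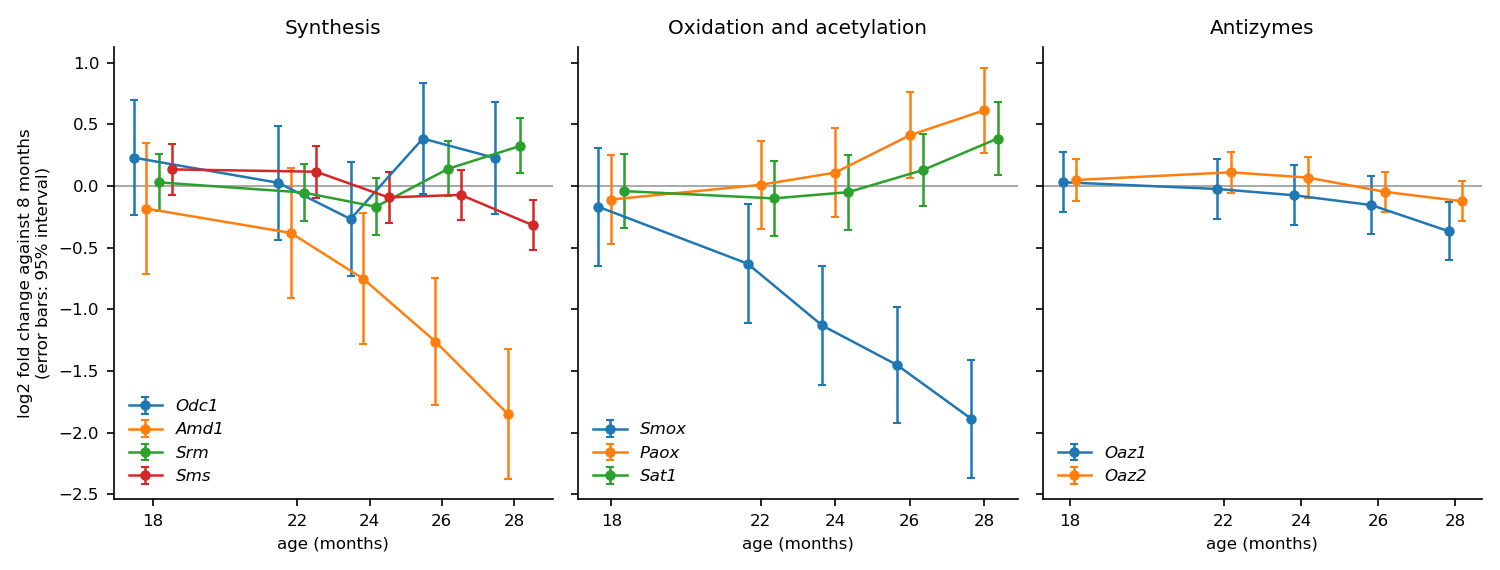
Log2 fold change of each polyamine gene against 8 months (vertical axis) at 18 to 28 months of age (horizontal axis), with 95% intervals from the edgeR fit over 50 mice. Amd1 and Smox reach −1.85 and −1.89 at 28 months, and Paox 0.61, while Odc1 and Oaz2 have intervals that include 0 at 28 months.

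Among mice that began the diet at a like age, 6 of 9 polyamine genes were called at 28 against 22 months, beside 27.7% of all genes, 16.2% higher and 11.5% lower. The 28 months-old mice had also been longer on the diet. Amd1 (−1.47, SE 0.26, FDR 4.24e-05), Smox (−1.26, SE 0.23, FDR 6.94e-05) and Sms (−0.43, SE 0.10, FDR 0.000763) were lower. Paox (0.60, SE 0.17, FDR 0.00467), Sat1 (0.49, SE 0.15, FDR 0.00707) and Srm (0.38, SE 0.11, FDR 0.00574) were higher. All 3 lower genes kept their call without any single mouse, but without 28 months replicate 2 none of the 3 higher genes was called (FDR 0.0276, 0.0537 and 0.0192 for Paox, Sat1 and Srm). Without 22 months replicate 8 or 28 months replicate 8 the count was likewise 3. Oaz1 (−0.34, SE 0.12, FDR 0.0169), Oaz2 (−0.23, SE 0.08, FDR 0.0175) and Odc1 (0.20, SE 0.23, FDR 0.483) did not pass.

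Pairs of members were also compared between mice of the same age. Over all 36 pairs of the 9 genes, Pearson's r was computed on log2(CPM + 1) minus the mean of the mouse's age over 50 mice, and tested with 100000 permutations of mice within age. Of these, 21 pairs had an adjusted p below 0.05, and 20 without 28 months replicate 2. The p was adjusted over the 36 pairs, and the share of all gene pairs at this threshold was not computed. An r of at least 0.5 in size was found for 12 of the 36 pairs (33.3%) and for 7.65% of all 79197405 pairs of tested genes, which were not matched to the members on level. Amd1 and Smox had the highest r, 0.77, with Spearman's rho = 0.74 (both permutation p = 1e-05, the smallest these permutations can give, adjusted p = 0.00012 and 0.00018). Without the 2 mice farthest from the median of Amd1, r was 0.76, and within single ages it lay between 0.29 (18 months) and 0.87 (26 months), positive at all 6 ages. Over the 50 mice, 0.190% of all pairs of tested genes had an r at least that of Amd1 and Smox. Oaz1 and Oaz2 had r = 0.73 and the highest rho, 0.80 (permutation p = 1e-05 for both, adjusted p = 0.00012 and 0.00018, r = 0.70 without 2 mice), again positive at every age, from 0.58 to 0.84. Amd1 and Oaz2 followed with r = 0.64 and rho = 0.61 (permutation p = 4e-05 and 8e-05, adjusted p = 0.00036 and 0.00072, r = 0.62 without 2 mice), though r at 8 months was −0.38 and at 24 months 0.02.

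The 3 most negative pairs joined Amd1 or Smox to Sat1 or Paox. Amd1 and Sat1 had r = −0.56 and rho = −0.51 (permutation p = 0.00098 and 0.00062, adjusted p = 0.00384 and 0.00306), −0.59 without the 2 farthest mice, and negative values at all 6 ages. For Smox and Sat1, r was −0.55 and rho −0.36 (permutation p = 0.00115 and 0.0216, adjusted p = 0.00384 and 0.0432), with r = −0.36 without 2 mice and −0.39 without 28 months replicate 2. The sign of this r also differed by age: 0.38 and 0.10 at 18 and 22 months, and −0.36 to −0.87 at the other ages. For Amd1 and Paox, r was −0.55 and rho −0.39 (permutation p = 0.00227 and 0.0146, adjusted p = 0.00584 and 0.031, r = −0.50 without 2 mice), and the sign differed by age: 0.50 and 0.54 at 8 and 18 months and −0.55 to −0.77 from 22 months on. In 26 months replicate 1, Amd1 (564 CPM) and Smox (136 CPM) were the lowest of their age and Paox (22.6 CPM) and Srm (9.83 CPM) the highest.

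Odc1 did not follow Amd1 or Smox over all mice. Its r with Amd1 was −0.20 and rho −0.13 (permutation p = 0.261 and 0.428, adjusted p = 0.33 and 0.513, r = −0.13 without 2 mice), and with Smox 0.08 and rho 0.15 (permutation p = 0.633 and 0.338, adjusted p = 0.682 and 0.436, r = 0.08 without 2 mice). The values at single ages differed in sign. With Smox, r was 0.71, 0.49, 0.80 and 0.62 at 8, 18, 22 and 24 months, and −0.40 and −0.27 at 26 and 28 months. With Amd1 it was 0.31, 0.09, 0.76 and 0.57 at the 4 younger ages and −0.48 and −0.61 at 26 and 28 months. With 8 or 9 mice an age, these values are a description, and the difference between ages was not tested.

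**Figure D4:**
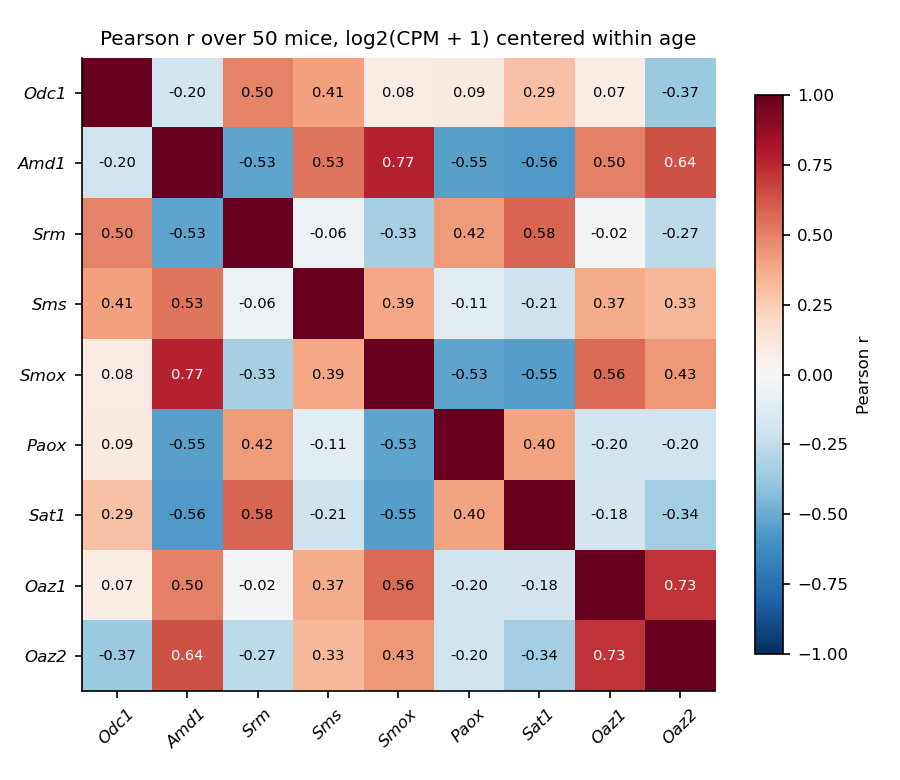
Pearson r between polyamine genes over 50 mice (color from −1 to 1, value in each cell), on log2(CPM + 1) centered on the mean of each age. Amd1 and Smox (0.77) and the antizymes (0.73) form the highest values, and Sat1 and Paox are negative with both Amd1 and Smox.

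The genes around the pathway were described from 6 lists, of which 25 genes were tested at 28 against 8 months: 4 were higher and 7 lower, where 39.6% of all genes were called. Of the antizyme inhibitors, which resemble ornithine decarboxylase and bind antizyme in its place, Azin1 fell by 0.58 on the log2 scale (SE 0.13, FDR 0.000195), from 57.1 ± 10.2 CPM (SD, n = 8) to 38.1 ± 6.23 CPM (n = 9). Azin2 had 2.81 ± 0.623 and 2.14 ± 0.555 CPM (log2 fold change −0.39, FDR 0.0581). Of 4 tested genes of ornithine and arginine metabolism, 1 was higher: Oat, the mitochondrial ornithine aminotransferase, at 228 ± 14.1 and 366 ± 95.2 CPM (0.68, SE 0.12, FDR 1.28e-05). Another 8 tested genes were listed around S-adenosylmethionine and the salvage of methylthioadenosine, the by-product of spermidine and spermine synthesis. Of these, 3 were lower and 1 higher. Mat2a, the catalytic subunit that makes S-adenosylmethionine outside the liver, fell by 0.77 (SE 0.14, FDR 1.74e-05), from 272 ± 51.4 to 159 ± 40.5 CPM. The salvage enzymes Apip (fell by 0.69, SE 0.10, FDR 7.97e-07) and Adi1 (fell by 0.61, SE 0.09, FDR 1.63e-06) were also lower, and Ahcy, which hydrolyzes S-adenosylhomocysteine, was higher (0.57, SE 0.13, FDR 0.000336).

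Among 6 genes of polyamine transport, 2 were higher and 2 lower. Atp13a3, a polyamine-transporting ATPase, had 3.72 ± 1.67 CPM at 8 months and 7.29 ± 1.04 CPM at 28 months (0.97, SE 0.20, FDR 9.66e-05), with no overlap between the ages. Slc18b1, a vesicular polyamine transporter, fell by 0.60 (SE 0.19, FDR 0.00760), from 2.72 ± 0.695 to 1.79 ± 0.741 CPM. Slc3a2 (0.50, FDR 0.000271) was higher and Gpc1 (−0.36, FDR 0.00323) lower. For the 4 genes of hypusine, the spermidine-derived residue of the translation factor eIF5A, log2 fold changes lay between −0.26 (Eif5a2) and −0.02 (Dhps), with FDR 0.186 to 0.829 and 95% intervals that all included 0. Sat2, a relative of Sat1, fell by 0.55 (SE 0.14, FDR 0.00145). Adi1, Ahcy, Slc3a2, Gpc1 and the hypusine genes were named after their values were seen, to complete the counts.

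**Figure D5:**
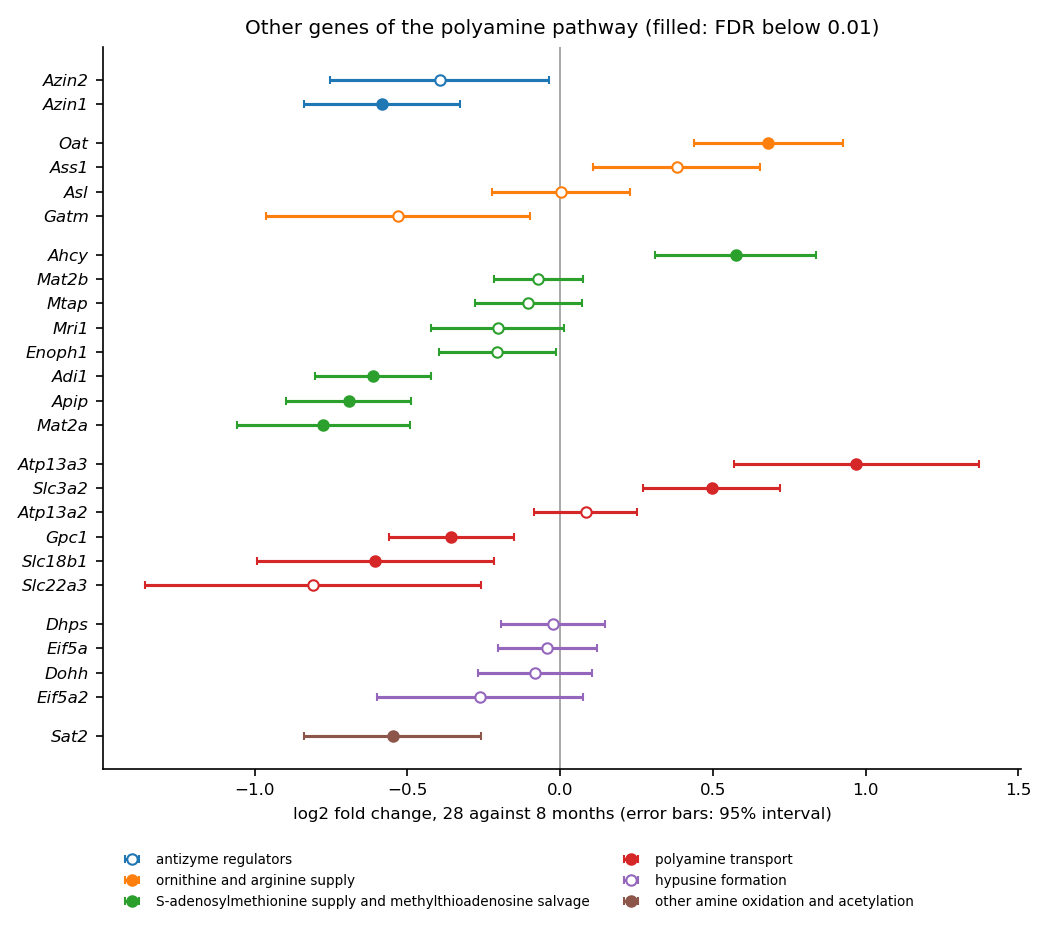
Log2 fold change (horizontal axis) at 28 against 8 months, with 95% intervals, of 25 further genes of the polyamine pathway, grouped by list (color); filled points have an FDR below 0.01. Atp13a3 (0.97), Oat (0.68), Ahcy (0.57) and Slc3a2 (0.50) are the 4 higher genes, and the 4 hypusine genes lie near 0 with open points.

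The 5 genes whose log2(CPM + 1) was most like that of Smox over the 50 mice, of all genes tested, were Pgm2 (r = 0.93), Fam213b (0.92), Mpnd (0.92), Amd1 (0.91) and Kif3c (0.90). Ordered by likeness to Amd1, Smox was at rank 23 of the genes tested. Pgm2 is phosphoglucomutase and Kif3c a kinesin. Those most like Paox were Fdft1, the squalene synthase (r = 0.85), Tmem38b (0.84), Mocs1 (0.84), Tfdp2 (0.84) and Igfbp3 (0.84), while the r of Paox with Amd1 and Smox was −0.72 and −0.69. These values include the age differences and describe likeness over the same libraries, with no test. Paox was far above its group median in 26 months replicate 1 (22.6 CPM) and 28 months replicate 2 (20.9 CPM). The part of these mice in the likeness to Paox was not tested.

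Some marker lists moved with age beside the polyamine genes at 28 against 8 months. In this comparison 21.0% of all genes tested were higher and 18.7% lower. Genes of the response to denervation were higher in 7 of 8 tested (median log2 fold change 1.29), among them Chrna1 and Runx1, and their summed level went from 288 to 517 CPM over the 8 months-old mice to 517 to 878 CPM at 28 months. Of the macrophage markers 4 of 6 were higher (135 to 245 CPM summed at 8 months, 203 to 546 at 28 months). Of the fibroblast markers 4 of 6 were lower (1010 to 1377 CPM summed at 8 months, 688 to 954 at 28 months), and of the adipocyte markers 4 of 5 (274 to 447 and 186 to 324 CPM). The fast fiber list had 2 higher and 1 lower of 9 (159211 to 203266 and 112170 to 234522 CPM). Higher were also 1 of 3 satellite cell, 1 of 5 erythroid and 1 of 1 tested lymphocyte markers. Lower were 1 of 5 endothelial and 1 of 6 Schwann cell markers. Of the slow fiber markers 0 of 6 were called, and the circadian clock list had 2 higher and 1 lower of 11. No listed marker with a row was at 0 in all mice. The part of these differences in the levels of Amd1, Smox or Paox was not tested.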

How the data were processed

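Per the labels and the study's methods, poly(A) RNA libraries (stranded kit) were trimmed with cutadapt 1.9.1 and assigned, with strand, to protein-coding GRCm38 transcripts with kallisto 0.43.1. The deposited counts were made by the authors as sums over the transcripts of a gene and are raw. The deposited TPM values were made by the authors from counts per transcript length. A read fitting several transcripts was divided among them. Samples were grouped by their labelled age.

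edgeR 4.0.16 (R 4.3.3) was used for counts, with TMM factors and 1 mean per age over 50 mice. The 12586 genes with 1 CPM or more in at least 8 mice were tested, and p-values were adjusted over them by Benjamini-Hochberg (FDR 0.01). SEs are the size of the log2 fold change over the root of F. CPM used TMM factors. Levels between genes used TPM, and correlations and outliers used Python 3.11.15, numpy 2.4.6, scipy 1.17.1 and pandas 2.3.3. Total counts ranged from 13607229 to 21267375, and precision is given by the spread between mice. DESeq2 1.42.0, limma 3.58.1 on log2(TPM + 1), other scalings, no filter, a replicate block and leaving out each mouse were alternatives. Promoter windows came from RefSeq (GRCm38.p6) and positions from GENCODE vM21; 9 of 10 members had a window.

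On counts simulated for 28 against 8 months over 12586 genes, 86% of 2-fold and 53% of 1.5-fold changes were called. The members, lists and tests were chosen with earlier results of these data known. Named were all members, the 2 largest called changes of each pathway list with Azin1 and Azin2, the 5 genes most like the largest riser and faller, and the 3 highest and 3 lowest pairs with the pairs of Odc1, Amd1 and Smox.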

Additional observations from a re-analysis of the deposited data

Results flagged for a closer look

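In 5 of 54 groups (9 genes at 6 ages) 1 mouse stood apart from the others by Dixon's test at the 95% level, where chance gives about 2.7. Paox was high in 28 months replicate 2, at 20.9 CPM beside a group median of 9.90 CPM. Sat1 was high in the same mouse, at 41.9 CPM beside a median of 20.5 CPM. Paox also stood out in 26 months replicate 1, at 22.6 CPM beside a median of 9.12 CPM, and in 22 months replicate 7, at 10.1 CPM beside 7.49 CPM. Oaz1 was high in 18 months replicate 2, at 601 CPM beside a median of 373 CPM. In 28 months replicate 2 the summed macrophage and lymphocyte markers were the highest of the age and the fast fiber markers the lowest. In 26 months replicate 1 the satellite cell markers were the highest of the age, 38.0 CPM beside 18.4 to 29.8 CPM in the others, and the macrophage markers (310 CPM) lay within the range of the others (205 to 409 CPM).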

How the results depend on the processing

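The falls of Amd1 and Smox at 28 against 8 months stayed called under every alternative run, with log2 fold changes of −2.02 to −1.73 and −2.02 to −1.77 when 1 mouse was left out. The count of called members was 3 without the filter on low counts, where Sms (FDR 0.0144) and Oaz1 (FDR 0.0123) missed the threshold, and at 28 against 22 months it was 3 with only those 2 ages in the fit; the cause was not tested. Leaving out 1 mouse at a time gave 2 to 7 called members at 28 against 8 months, 3 to 8 at 28 against 22 months, 9 to 12 of the further pathway genes and 4350 to 5423 of all genes. With the ages joined, leaving out 1 mouse, an alternative chosen after seeing the data, gave 0 to 1 member at 22 and 24 against 8 and 18 months and 4 to 6 at 26 and 28 against 22 and 24 months. Leaving out 28 months replicate 2 from the correlations was also chosen after seeing the data.

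The correlation of Odc1 and Smox changed sign on log2(TPM + 1) (r = −0.0483) and without centering on age (−0.0324). Of all called genes, 52.9% were higher with TMM, 44.9% with upper-quartile factors and 61.4% by limma on log2(TPM + 1), and the median of all genes moved by less than 0.1. Whether replicate numbers pair mice was not settled. Same-numbered mice of different ages had mean correlations of −0.07 to 0.14, beside −0.005 for mice of different numbers and ages. Of 50 mice, 12 were closest to the mice of their own number, and the count given by chance was not computed. With the replicate number as a block, 6 members (Srm in addition), 6, 5, 1 and 6 were called at 28 against 8, at 28 against 22, over the 6 ages and in the joined earlier and later ages, with 11 further pathway genes and 4954 genes in all. A fit on the sum of Amd1 and Amd2 was not run, since no value for Amd2 was analysed here. Paox and Srm rest on the fewest counts of the members, and the part of depth in their spread was not tested.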
